A study of Mus musculus with 20 samples.

Results

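The 10 genes described here make up the Notch pathway as it is read in the arterial wall: the receptors Notch1, Notch2, Notch3 and Notch4, the ligands Jag1 and Dll4, and the target genes Hey1, Hey2, Heyl and Hes1. They were found in the count table by gene ID, with symbols from GENCODE mouse release M21, and are 10 of the 54532 genes listed. All 10 had counts high enough to be tested, among 15543 genes tested in all. RNA of the ascending and descending aorta of C57BL/6J mice was sequenced after 1 week of BAPN or water. BAPN, β-aminopropionitrile, inhibits lysyl oxidase, the enzyme family that crosslinks elastin and collagen.

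The study has 4 groups of 5 libraries: descending aorta under BAPN, descending aorta under water, ascending aorta under BAPN and ascending aorta under water. All mice are of the same strain, and the labels name no other allele or agent. The region of a library was read from the letter that opens its title together with the design text. The labels used here give neither age nor sex, and they do not say whether 2 libraries come from the same animal or whether animals were pooled. P-values therefore measure the spread between these libraries.

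Notch proteins are receptors that are cut when a ligand on a neighbouring cell binds them. The freed intracellular part enters the nucleus, joins the DNA-binding protein RBPJ and switches on genes of the HEY and HES families, which encode transcriptional repressors. In arteries, Jag1 and Notch3 are known for signalling to and within smooth muscle, whereas Dll4, Notch1 and Notch4 are best known from the endothelium.

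Library totals lay between 15.7 M and 23.3 M counts. The tissue label was checked against marker genes: 7 smooth muscle markers summed to between 18829.9 and 24897.8 CPM (counts per M counts of the TMM-scaled library size) in every library. These markers stood at very unlike levels. Acta2 had group means of 11452 to 15084 CPM, whereas Tagln had group means of 54.1 to 60.6 CPM. The cause of the low level of Tagln was not tested. The 10 markers of the endothelium, the inner lining, summed to 1006 to 1687 CPM. Heart muscle markers stood at 18.4 to 27.3 CPM in the descending libraries and at 453 to 1437 CPM in the ascending ones. Libraries also fell into 2 sets by the levels of 33 pseudogenes. The set with higher levels held all 5 ascending BAPN libraries, 2 ascending water libraries and 3 descending water libraries. The other held all 5 descending BAPN libraries, 3 ascending water libraries and 2 descending water libraries. These sets are called batches here, although no label names them, and the regional comparison under BAPN cannot be told apart from them without the water libraries.

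Promoters were printed for Hey2, Notch4 and Notch1, which passed between regions under both treatments and had an entry, to show which motifs of the pathway they hold or lack. Each is RefSeq sequence on GRCm38.p6, 250 bases before the start site and 50 bases after it, written 5′ to 3′ on the gene's strand. Entries for 7 of the 10 members were matched (Notch1, Notch2, Notch3, Notch4, Jag1, Dll4 and Hey2). Capitals in Hey2 mark CGTGGGAA, the extended RBPJ-type sequence, on either strand, and capitals in Notch4 mark TGACTCA, the AP-1 sequence. Hey2 lies at chr10:30842734-30843033 on the minus strand, Notch4 at chr17:34564045-34564344 on the plus strand and Notch1 at chr2:26503773-26504072 on the minus strand. The Notch1 window lies inside the GENCODE M21 span of this gene, whose 5′ end is at base 26516663. Sequence at that end was not searched.
Hey2: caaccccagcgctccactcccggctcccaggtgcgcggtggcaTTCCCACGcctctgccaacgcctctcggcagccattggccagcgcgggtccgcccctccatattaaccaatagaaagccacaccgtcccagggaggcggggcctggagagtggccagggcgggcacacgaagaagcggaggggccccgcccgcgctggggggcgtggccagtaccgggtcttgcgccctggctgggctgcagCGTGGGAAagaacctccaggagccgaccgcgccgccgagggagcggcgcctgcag
Notch4: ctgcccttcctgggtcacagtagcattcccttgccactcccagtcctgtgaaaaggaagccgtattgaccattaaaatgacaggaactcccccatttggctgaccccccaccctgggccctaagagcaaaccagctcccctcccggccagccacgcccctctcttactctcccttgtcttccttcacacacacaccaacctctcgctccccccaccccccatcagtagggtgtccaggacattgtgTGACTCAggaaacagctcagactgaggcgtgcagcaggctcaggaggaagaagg
Notch1: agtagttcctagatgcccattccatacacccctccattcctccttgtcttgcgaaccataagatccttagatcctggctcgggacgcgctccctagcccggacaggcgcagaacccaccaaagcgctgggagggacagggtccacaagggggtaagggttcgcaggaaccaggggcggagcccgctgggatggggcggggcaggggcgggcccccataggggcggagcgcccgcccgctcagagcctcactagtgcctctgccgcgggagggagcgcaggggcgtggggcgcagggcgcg

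The Hey2 promoter holds CGTGGGAA at bases 44 to 51 on the minus strand of the printed window and at bases 246 to 253 on its plus strand, where it spans the start site. Of 32851 mouse promoters of the same length, searched on both strands, 241 (0.734%) hold this sequence and 4 (0.0122%) hold it at 2 or more places. The shorter core TGGGAA, which lies inside the longer one, occurs in 25.6% of promoters and, among the 7 members, in Hey2 alone. TGACTCA occurs in 5.2% of promoters and, among the 7, in Notch4 alone, at bases 247 to 253. The E-box CACGTG, a binding sequence of HEY-type repressors, occurs in 7.15% of promoters and in none of the 7. A match describes letters in the window and is not evidence of binding.

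Per kilobase of exon, Heyl was the most abundant member and Dll4 the least. Over the 20 libraries Heyl averaged 67.8 CPM per kb, Hey2 17.4, Jag1 14.0, Notch2 11.8 and Notch3 11.3 CPM per kb. Hes1 averaged 9.54, Hey1 3.14, Notch1 3.06, Notch4 2.89 and Dll4 0.986 CPM per kb. In this order only Heyl and Hey2, and Hes1 and Hey1, had ranges over libraries that did not overlap; every other neighbour overlapped the next. Scaling by the longest transcript in place of all exons put Hey2 at 31.4, Hes1 at 13.2, Notch1 at 4.58 and Hey1 at 4.23 CPM per kb, so that Hes1 moved above Notch2 and Notch1 above Hey1.

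**Figure D1:**
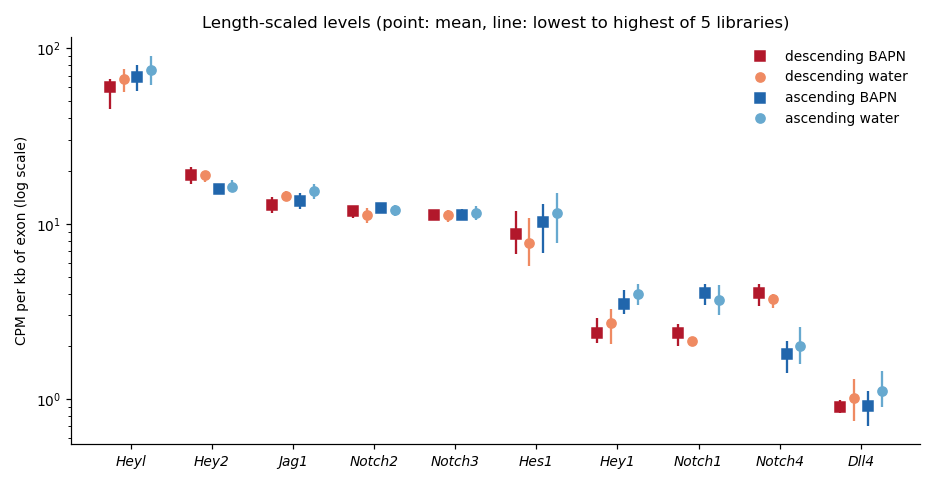
Length-scaled level of each member (vertical axis, CPM per kb of exon, log scale) in the 4 groups; points are means and lines run from the lowest to the highest of 5 libraries. Heyl lies above all other members, and Notch4 and Notch1 change places between the descending and the ascending groups.

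The place of 2 receptors in the order differed with region. In descending aorta Notch4 averaged 4.02 CPM per kb under BAPN and 3.73 under water, and lay above Notch1, which averaged 2.37 CPM per kb under BAPN and 2.15 under water. In ascending aorta Notch4 averaged 1.82 CPM per kb under BAPN and 2.01 under water, below Notch1 at 4.05 CPM per kb under BAPN and 3.66 under water. The ranges of the 2 genes did not overlap in any of the 4 groups.

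Descending was compared with ascending aorta under each treatment. Among the receptors, Notch1 was lower and Notch4 higher in descending aorta under both treatments, while neither Notch2 nor Notch3 passed the test. Among the targets, Hey1 was lower and Hey2 higher under both treatments. Hes1 was lower under water alone, and Heyl and the ligands did not pass in either. Under BAPN 4 of 10 members passed, 2 higher and 2 lower, against 29.8% of all tested genes (14.2% higher and 15.6% lower). Under water 5 of 10 passed, 2 higher and 3 lower, against 27.3% of all genes (12.1% higher and 15.2% lower). The median absolute log2 difference of the members was 0.21 under BAPN and 0.21 under water, beside 0.15 and 0.14 over all genes. Tests are edgeR's quasi-likelihood tests with Benjamini-Hochberg adjustment over all tested genes, and a gene passed at an adjusted p under 0.05.

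**Figure D2:**
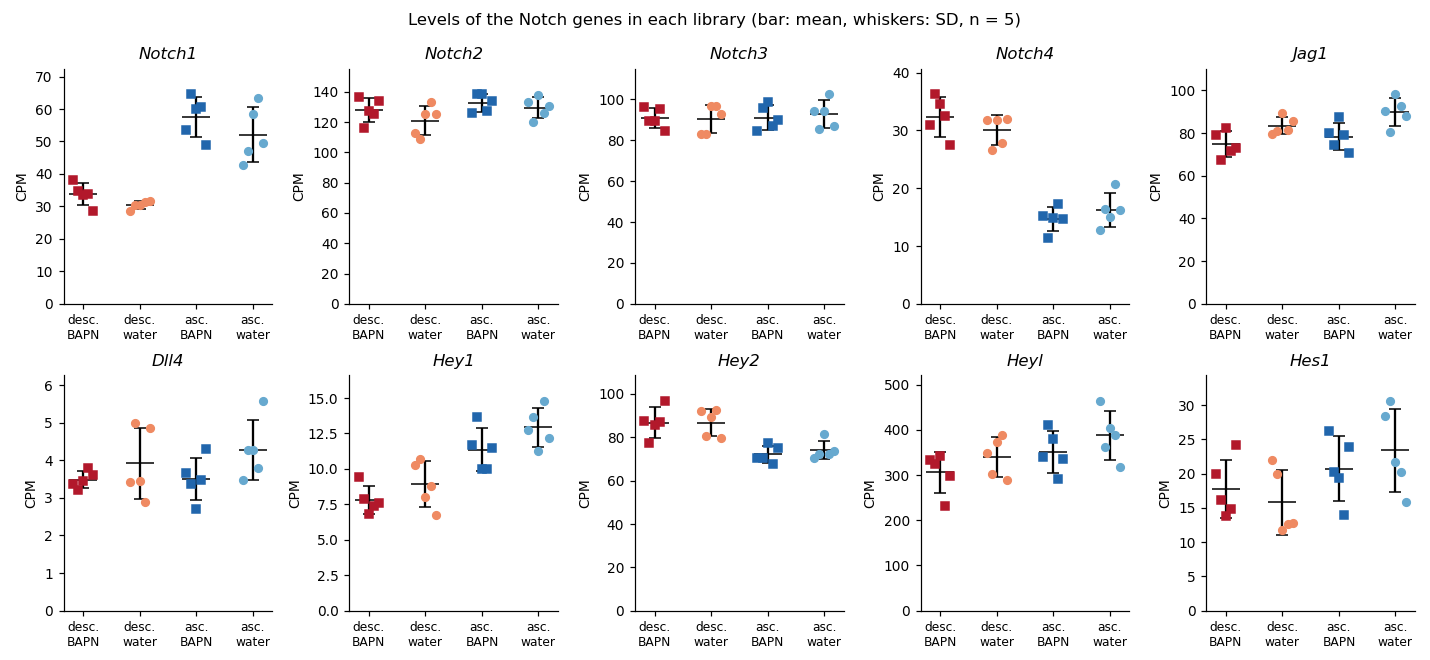
CPM of each member (vertical axes, starting at 0) in every library, by group; the bar is the mean and the whiskers the SD of 5 libraries. Notch1 and Hey1 are lower and Notch4 is higher in both descending groups than in the ascending ones without overlap under either treatment, whereas the groups of Notch2, Notch3, Jag1, Dll4 and Heyl overlap.

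Notch1 (chr2:26457903-26516663, minus strand) encodes a receptor needed for arterial identity of the endothelium. Under BAPN it stood at 38.0, 34.9, 33.5, 33.8 and 28.6 CPM in descending aorta, against 53.6, 64.7, 60.1, 60.6 and 49.0 CPM in ascending aorta. Under water it stood at 28.5, 30.5, 30.6, 31.2 and 31.8 CPM in descending aorta, against 42.7, 46.9, 58.3, 63.3 and 49.4 CPM in ascending aorta. Every descending library was below every ascending one under both treatments. The log2 difference was -0.77 (SE 0.09, adjusted p = 1.95e-07) under BAPN and -0.77 (SE 0.09, adjusted p = 2.09e-07) under water. In bulk tissue, fewer cells of a type and less RNA per cell cannot be told apart.

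Notch4 (chr17:34564268-34588503, plus strand) encodes a receptor found mainly in endothelial cells. Under BAPN it stood at 31.0, 36.4, 34.6, 32.6 and 27.4 CPM in descending aorta, against 15.2, 11.4, 14.8, 17.3 and 14.7 CPM in ascending aorta. Under water it stood at 31.8, 26.6, 31.9, 27.9 and 32.0 CPM in descending aorta, against 12.8, 16.5, 15.002, 20.7 and 16.2 CPM in ascending aorta. All descending libraries were above all ascending libraries within each treatment. Descending aorta exceeded ascending aorta by a log2 difference of 1.14 (SE 0.11, adjusted p = 4.76e-09) under BAPN and 0.89 (SE 0.11, adjusted p = 2.53e-07) under water, which are 2.20-fold and 1.85-fold. The difference between these 2 effects was 0.25 (95% interval -0.06 to 0.56) and did not pass (adjusted p = 0.813).

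Since the labels give neither the strandedness of the libraries nor a strand setting of the counting, reads of overlapping genes cannot be told apart from those of the receptors. In GENCODE M21, Notch1 overlaps 0610009E02Rik and Gm13568 on the other strand, Notch3 overlaps Gm17276, Notch4 overlaps Gm20462 and Dll4 overlaps Gm14207, each on the other strand. Notch2 overlaps Gm42819 and Gm42820 on its own strand.

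The ratio of Notch4 to Notch1 within each library restates their 2 opposite shifts. Each gene separated the regions without overlap, in opposite directions, so the ratio had to separate them too. The log2 ratio of Notch4 to Notch1, per kb, averaged 0.76 ± 0.14 in descending and -1.16 ± 0.31 in ascending aorta under BAPN (SD, n = 5 each). Under water it averaged 0.79 ± 0.15 in descending and -0.87 ± 0.17 in ascending aorta (SD, n = 5 each). Both regional differences therefore had a two-sided exact permutation p = 0.00794, the smallest that 5 against 5 libraries can give. The adjusted p was 0.0317 over 16 comparisons of ratios and sums. These p-values follow from the values of the 2 genes and are not a separate result. BAPN against water gave p = 0.77 in descending and p = 0.0952 in ascending aorta for this ratio, by the same exact test.

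Notch2 and Notch3 carried most of the receptor RNA in every group. Notch2 (chr3:98013527-98150361, plus strand) is broadly expressed in vessels and made up 40.2% and 39.6% of the receptor sum per kb in descending aorta under BAPN and water. In ascending aorta its share was 41.8% under BAPN and 41.3% under water. Notch3 (chr17:32120820-32166852, minus strand), the receptor of arterial smooth muscle, made up 38.1% and 39.6% in descending aorta under BAPN and water, and 38.2% and 39.3% in ascending aorta. The remaining share was Notch1 at 8.02% and 7.60% and Notch4 at 13.6% and 13.2% in descending aorta under BAPN and water. In ascending aorta Notch1 had 13.7% under BAPN and 12.5% under water, and Notch4 had 6.21% and 6.90%. All these shares use all exons. Scaled by the longest transcript, Notch1 averaged 4.58 in place of 3.06 CPM per kb over the 20 libraries, so its share would be larger. The receptor sum itself averaged 29.5, 28.3, 29.4 and 29.1 CPM per kb in descending BAPN, descending water, ascending BAPN and ascending water libraries. No difference of the sum passed, with exact permutation p between 0.254 and 0.952.

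Across libraries Notch2 ranged over 109 to 139 CPM and Notch3 over 83.1 to 103 CPM. The regional log2 difference of Notch2 was -0.05 (95% interval -0.17 to 0.06) under BAPN and -0.10 (-0.21 to 0.01) under water. That of Notch3 was 0.00 (-0.12 to 0.12) under BAPN and -0.03 (-0.16 to 0.09) under water. Neither gene passed in either comparison.

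**Figure D3:**
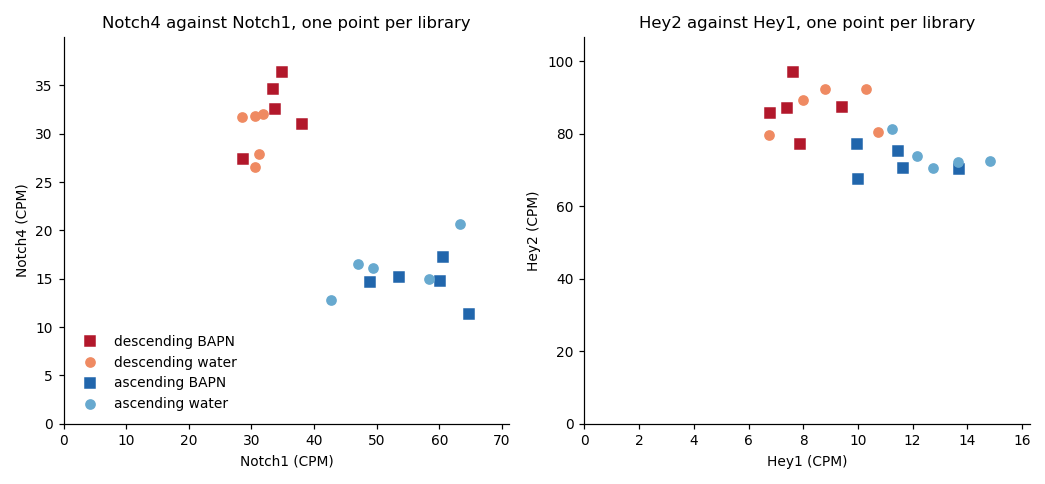
CPM of Notch4 against Notch1 (left) and of Hey2 against Hey1 (right), 1 point per library, with descending libraries in red and orange and ascending libraries in blue. Descending libraries lie high on Notch4 and low on Notch1, and the 2 regions form separate clouds in the left panel.

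Hey1 (chr3:8663359-8667256, minus strand) encodes a repressor induced by Notch in endothelium and smooth muscle. Under BAPN it stood at 9.42, 7.87, 6.80, 7.40 and 7.62 CPM in descending aorta, against 11.7, 13.7, 9.98, 9.98 and 11.4 CPM in ascending aorta. Under water it stood at 10.3, 10.7, 8.01, 8.80 and 6.75 CPM in descending aorta, against 12.8, 13.7, 11.2, 14.8 and 12.2 CPM in ascending aorta. No descending library reached an ascending one within a treatment, although the gaps between the groups were small. The log2 difference was -0.53 (SE 0.12, adjusted p = 0.00114) under BAPN and -0.53 (SE 0.12, adjusted p = 0.000931) under water.

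Hey2 (chr10:30832359-30842801, minus strand) encodes a related repressor of arterial endothelium and smooth muscle. Under BAPN it stood at 87.5, 77.2, 85.7, 87.0 and 96.9 CPM in descending aorta, against 70.7, 70.3, 77.3, 67.6 and 75.1 CPM in ascending aorta. Under water it stood at 92.3, 80.5, 89.2, 92.4 and 79.8 CPM in descending aorta, against 70.6, 72.1, 81.3, 72.4 and 73.7 CPM in ascending aorta. The groups overlapped: 4 of 5 descending libraries lay above all ascending ones under BAPN, and 3 of 5 under water. Hey2 was thus higher in descending aorta by a log2 difference of 0.27 (SE 0.06, adjusted p = 0.000764) under BAPN and 0.23 (SE 0.06, adjusted p = 0.00324) under water. Of the 10 members, 3 had groups that did not overlap under BAPN and 3 under water, against 21.4% and 20.1% of all tested genes.

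The log2 ratio of Hey2 to Hey1, per kb, averaged 2.99 ± 0.21 in descending and 2.18 ± 0.22 in ascending aorta under BAPN (SD, n = 5 each). Under water it averaged 2.81 ± 0.26 in descending and 2.03 ± 0.22 in ascending aorta. Each regional difference had an exact permutation p = 0.00794 (adjusted p = 0.0317 over the same 16 comparisons). This ratio joins 2 genes that had already passed in opposite directions, so it is not a separate result. The sum of the 4 targets averaged 89.9 and 98.1 CPM per kb in descending and ascending aorta under BAPN, and 96.0 and 107 CPM per kb under water. Neither difference of the sum passed (exact permutation p = 0.23 under BAPN and p = 0.127 under water). Heyl made up 66.4% to 70.5% of that sum on average in the 4 groups. These shares use all exons. Scaled by the longest transcript, Hey2 averaged 31.4 in place of 17.4 CPM per kb and Heyl 76.4 in place of 67.8. The share of Heyl would then be lower.

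Hes1 (chr16:30064384-30067796, plus strand) encodes a repressor that many signals besides Notch induce, and it varied most within each group, with a coefficient of variation of 22.7% to 30.2%. Under BAPN it stood at 20.01, 16.1, 13.8, 14.8 and 24.2 CPM in descending aorta, against 26.3, 20.3, 19.4, 14.0 and 23.8 CPM in ascending aorta. Under water it stood at 22.0, 19.95, 11.7, 12.7 and 12.8 CPM in descending aorta, against 28.4, 30.7, 21.8, 20.3 and 15.9 CPM in ascending aorta. The groups overlapped under both treatments. The log2 difference was -0.22 (95% interval -0.62 to 0.19, adjusted p = 0.461) under BAPN and -0.56 (SE 0.20, adjusted p = 0.0342) under water. The call under water was lost without descending water library 3, 4 or 5 (adjusted p = 0.102, 0.0901 and 0.0854) and without ascending water library 1 or 2 (0.0921 and 0.107). It was also lost with DESeq2 (adjusted p = 0.0554) and with a term for batch (0.0549). It was kept with limma-voom (adjusted p = 0.0353). With the replicate number as a block in edgeR it was kept too (-0.58, adjusted p = 0.00459), but the labels do not say that equal numbers mark a shared animal. Within the batch with higher pseudogene levels the log2 difference was 0.02 (adjusted p = 0.972), and within the other it was -1.14 (SE 0.20, adjusted p = 0.000927).

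Heyl (chr4:123233556-123249875, plus strand), a HEY-type repressor found mainly in smooth muscle and pericytes, did not pass in either regional comparison. Under BAPN it had a low, a median and a high of 232, 324 and 343 CPM in descending aorta, against 291, 340.3 and 411 CPM in ascending aorta. Under water these were 288, 349.6 and 388 CPM in descending aorta, against 318, 389 and 465 CPM in ascending aorta. The log2 difference was -0.20 (95% interval -0.42 to 0.02) under BAPN and -0.19 (-0.41 to 0.03) under water.

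Averaging the 2 regional differences in the same model, a comparison added after the data were seen, 6 of 10 members passed, 2 higher and 4 lower, against 40.2% of all tested genes (20% higher and 20.1% lower). Heyl was then lower in descending aorta (log2 difference -0.19, SE 0.08, adjusted p = 0.0425), and so was Hes1 (-0.39, SE 0.14, adjusted p = 0.0278). Each of these calls was lost in 9 of the 20 fits that left out 1 library. For Heyl these were the fits without number 4 or 5 of descending BAPN, number 2 or 5 of descending water, number 2 or 3 of ascending BAPN, or number 1, 3 or 4 of ascending water, with adjusted p between 0.0582 and 0.0945. For Hes1 they were those without number 3 or 4 of descending BAPN, number 3, 4 or 5 of descending water, number 1 or 5 of ascending BAPN, or number 1 or 2 of ascending water (0.0507 to 0.0628). Heyl with DESeq2 gave an adjusted p = 0.0589, and Hes1 with a batch term gave 0.0536. With that term Heyl was -0.29 (adjusted p = 0.00441) and Notch2 passed as lower (-0.11, adjusted p = 0.044), so that 6 of 10 passed again, against 34.6% of all genes in that fit, with Notch2 in place of Hes1.

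Regional differences under water were recomputed within each batch, where both regions have libraries. The log2 difference of Notch1 was -0.90 in the batch with higher pseudogene levels and -0.68 in the other, and that of Notch4 was 0.71 and 1.02. Hey1 gave -0.54 and -0.57. Each of these passed in both batches, with adjusted p up to 0.0456. Hey2 gave 0.20 (adjusted p = 0.074) in the batch with higher levels and 0.28 (adjusted p = 0.0368) in the other. Under BAPN each region lies in a batch of its own, so a within-batch value cannot be had. A batch term, carried by the water libraries, gave -0.69 for Notch1 (adjusted p = 0.000323), 1.30 for Notch4 (3.08e-07), -0.41 for Hey1 (0.102) and 0.20 for Hey2 (0.105). Heyl under BAPN was -0.45 with this term and passed (adjusted p = 0.0223).

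**Figure D4:**
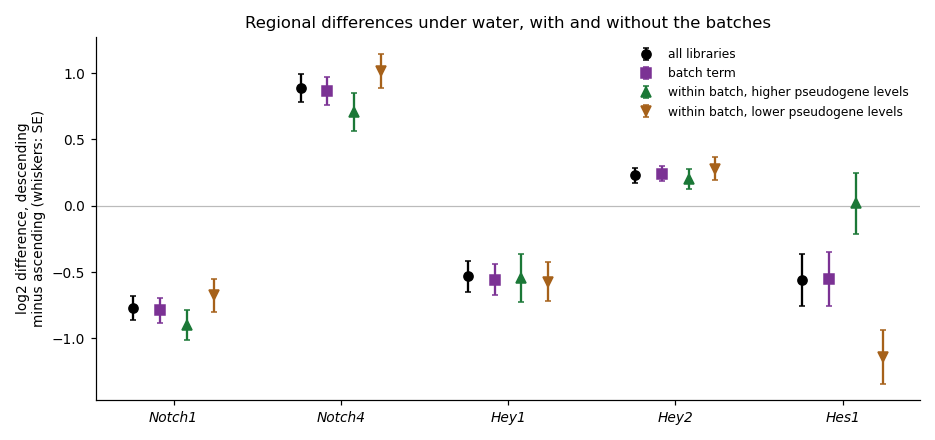
Log2 difference of descending minus ascending aorta under water for the 5 members that passed (whiskers: SE), from all libraries, with a batch term, and within each of the 2 batches. Notch1, Notch4, Hey1 and Hey2 keep their sign in all 4 fits, and Hes1 lies at 0.02 in the batch with higher pseudogene levels.

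Markers of several cell types moved with region. Of 10 endothelial markers, 4 passed as higher (Pecam1, Vwf, Erg and Esam) and 2 as lower (Kdr and Emcn) in descending aorta under BAPN, and 1 was higher (Vwf) and 2 lower (Kdr and Emcn) under water. Their summed level ran from 1419 to 1687 CPM in descending and from 1111 to 1337 CPM in ascending aorta under BAPN, and from 1315 to 1569 and from 1006 to 1491 CPM under water. Kdr, a receptor of vascular endothelial growth factor, averaged 5.69 CPM in descending and 36.4 CPM in ascending aorta under BAPN, and 5.21 and 39.0 CPM under water. Cdh5, a general endothelial junction gene, differed by 0.04 (adjusted p = 0.76) under BAPN and -0.10 (adjusted p = 0.398) under water.

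Of 5 lymphatic markers, Ccl21a was at 0 in every library, and 3 of the 4 tested were lower in descending aorta under each treatment. Their summed level was 48.9 to 61.3 CPM in descending and 102 to 124 CPM in ascending aorta under BAPN, and 46.4 to 57.1 and 89.9 to 118 CPM under water. All 9 heart muscle markers, all 5 mesothelial markers and 4 of 5 Schwann cell markers were also lower in descending aorta under each treatment. The mesothelial sum was 0.762 to 12.2 CPM in descending and 209 to 277 CPM in ascending aorta under BAPN, and 1.17 to 11.7 and 206 to 374 CPM under water. Of 5 pericyte markers, a list that holds Notch3 itself, 4 were higher under BAPN and 3 under water, with sums of 1472 to 1588 CPM in descending and 1046 to 1184 CPM in ascending aorta under BAPN, and 1406 to 1566 and 976 to 1066 CPM under water. Of 6 fibroblast markers, 1 was higher (Col1a1) and 4 were lower in descending aorta under each treatment, and no macrophage marker passed in either. Of 7 smooth muscle markers only Des differed, and it was lower in descending aorta under both treatments. Of 5 adipocyte markers, 1 was higher in descending aorta under BAPN (Fabp4) and 3 under water (Fabp4, Plin1 and Cidec), with sums of 138 to 350.5 CPM in descending and 99.0 to 214 CPM in ascending aorta under BAPN, and 172 to 369.7 and 58.1 to 161 CPM under water. The part of these cell types in the differences of Notch1, Notch4, Hey1, Hey2 and Hes1 was not tested.

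BAPN was compared with water within each region. In descending aorta no member passed, and in ascending aorta Jag1 alone was lower under BAPN. The descending count is 0 of 10 with edgeR, DESeq2 and limma-voom, against 10.7% of all genes (6.18% higher and 4.54% lower), and 1 of 10, Jag1, had an unadjusted p under 0.05, against 23.4% of all genes. The ascending count is 1 of 10, against 6.34% of all tested genes (3.44% higher and 2.91% lower). These comparisons share their libraries with the regional ones. In neither region did the BAPN and water groups of any member separate without overlap, against 7.38% of all genes in descending and 7.51% in ascending aorta. The median log2 difference of the members was 0.00 in descending and -0.14 in ascending aorta, beside 0.00 and -0.01 over all genes.

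Jag1 (chr2:137081456-137116644, minus strand) encodes a ligand that endothelium and smooth muscle present to Notch receptors of neighbouring smooth muscle. In descending aorta it stood at 79.1, 67.2, 82.5, 71.5 and 73.1 CPM under BAPN, against 79.7, 80.9, 89.2, 81.4 and 85.8 CPM under water. In ascending aorta it stood at 79.8, 74.5, 87.5, 78.9 and 70.4 CPM under BAPN, against 90.1, 80.3, 98.4, 92.8 and 87.8 CPM under water. In each region 4 of 5 BAPN libraries lay below all water libraries, and 1 BAPN library, number 3 of its group, lay among them. The log2 difference was -0.16 (SE 0.06, adjusted p = 0.108) in descending aorta and -0.20 (SE 0.06, adjusted p = 0.0497) in ascending aorta. Of 7 smooth muscle markers, Acta2 alone passed, higher under BAPN by 0.34 in descending and 0.32 in ascending aorta, and none of 10 endothelial markers passed in either region. In ascending aorta 3 of 9 heart muscle markers were also higher under BAPN, with sums of 728 to 1437 CPM under BAPN and 453 to 1110 CPM under water. Rgs5, a pericyte marker (0.26, adjusted p = 0.00352), and Lyve1, a lymphatic marker (0.33, adjusted p = 0.0331), were higher there as well, and Col1a1, a fibroblast marker, was lower (-0.22, adjusted p = 0.0201). In descending aorta the fibroblast marker Dpt (-0.32, adjusted p = 0.00467) and the pericyte marker Kcnj8 (-0.23, adjusted p = 0.0453) were lower and the pericyte marker Cspg4 was higher (0.24, adjusted p = 0.0195). No other marker of the 10 lists passed in either region. The part of these markers in the values of Jag1 was not tested.

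The call for Jag1 in ascending aorta was close to the threshold. It held in 4 of 20 fits that left out 1 library, those without number 2 or 3 of descending BAPN, number 3 of ascending BAPN, or number 2 of ascending water. Leaving out any of the other 16 libraries lost it, and the adjusted p over the 20 fits ran from 0.0204 to 0.149. It was lost as well with a batch term (adjusted p = 0.176), within the batch with higher pseudogene levels (-0.21, adjusted p = 0.153) and when the 2 groups were fitted alone (0.0596). It was kept with DESeq2 (adjusted p = 0.0248) and limma-voom (0.0446). In descending aorta Jag1 passed with upper-quartile scaling (adjusted p = 0.0499), and within the batch with lower pseudogene levels it was -0.19 (adjusted p = 0.284). Averaged over the 2 regions, in a comparison added after the data were seen, Jag1 was lower under BAPN (log2 difference -0.18, SE 0.04, adjusted p = 0.00447). This fit counts the libraries of the 2 regions as separate units. The labels do not say whether they share animals, and if they do, this SE may be too small. Jag1 was the only 1 of 10 members to pass in this average, against 17.5% of all genes (9.47% higher and 8.02% lower). The call held in 20 of 20 fits that left out 1 library. A batch term (adjusted p = 0.00508) hardly tests it, because over both regions the batches are balanced between BAPN and water. Within each region they are not, and there Jag1 missed the threshold with this term (adjusted p = 0.176 in ascending and 0.169 in descending aorta).

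In that average, Notch1 passed without ascending water library 4 (0.18, adjusted p = 0.0387) and Hey1 without descending water library 5 (-0.23, adjusted p = 0.0469), and neither passed with all libraries (adjusted p = 0.133 and 0.132). The other ligand, Dll4 (chr2:119325784-119335962, plus strand), marks arterial endothelium and was the least abundant member, with 52 to 113 reads in a library. It averaged 3.49 ± 0.22 CPM under BAPN and 3.92 ± 0.94 CPM under water in descending aorta (SD, n = 5 each), and 3.50 ± 0.57 and 4.28 ± 0.80 CPM in ascending aorta. Its log2 difference under BAPN was -0.16 (95% interval -0.50 to 0.18) in descending and -0.29 (-0.62 to 0.04) in ascending aorta. With a batch term these were 0.06 (adjusted p = 0.896) and -0.49 (adjusted p = 0.121), so the sign turned in descending aorta; within the batch with lower pseudogene levels the descending value was 0.14 (adjusted p = 0.79). Between regions it was 0.00 (-0.34 to 0.34) under BAPN and -0.14 (-0.46 to 0.19) under water. With a batch term these regional values were 0.34 (adjusted p = 0.328) and -0.21 (adjusted p = 0.330).

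For the receptors, the 95% intervals of the BAPN effect in descending aorta were -0.05 to 0.34 for Notch1, -0.03 to 0.19 for Notch2, -0.11 to 0.13 for Notch3 and -0.10 to 0.32 for Notch4. In ascending aorta they were -0.04 to 0.33 for Notch1, -0.08 to 0.15 for Notch2, -0.15 to 0.09 for Notch3 and -0.37 to 0.09 for Notch4. For the targets in descending aorta they were -0.44 to 0.06 for Hey1, -0.12 to 0.12 for Hey2, -0.37 to 0.07 for Heyl and -0.24 to 0.59 for Hes1. In ascending aorta they were -0.42 to 0.05 for Hey1, -0.16 to 0.08 for Hey2, -0.36 to 0.08 for Heyl and -0.57 to 0.23 for Hes1. All 8 genes missed the threshold in both regions, and these intervals leave room for changes as large as their ends.

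**Figure D5:**
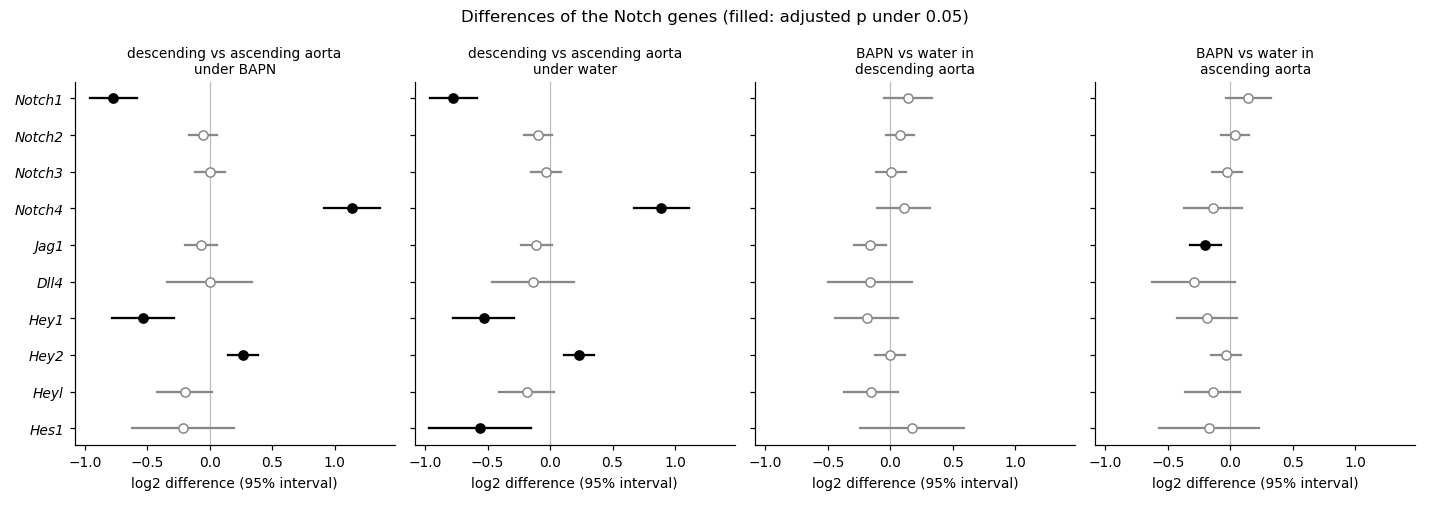
Log2 differences (horizontal axes, with 95% intervals) of the 10 members in the regional comparisons under BAPN and water and in the BAPN comparisons in descending and ascending aorta; filled points have an adjusted p under 0.05. The regional panels show Notch4 and Hey2 right of 0 and Notch1 and Hey1 left of it, while in the BAPN panels Jag1 in ascending aorta is the only filled point.

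The difference of the BAPN effect between descending and ascending aorta passed for 0 of 10 members and for 0% of all tested genes with edgeR. At an unadjusted p under 0.05 it was 0 of 10 members and 1070 genes (6.88%), and DESeq2 and limma-voom called 14 and 0 genes, none of them a member. The widest intervals were those of Hes1 (0.34, from -0.23 to 0.92) and Dll4 (0.13, from -0.34 to 0.61).

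A wider list of 66 pathway genes, of which 59 were tested, shows the surroundings of the members. Between regions 30 of 59 passed under BAPN (17 higher and 13 lower in descending aorta) and 26 of 59 under water (13 higher and 13 lower), against 29.8% and 27.3% of all genes. With a batch term, 14 of 59 passed under BAPN, against 17.7% of all genes in that fit, and 27 of 59 under water, against 27.6%. Within batches, 21 of 59 passed under water where pseudogene levels were higher, against 18.8% of all genes, and 14 of 59 where they were lower, against 15.2%. Of the 5 genes that this list places among ligands, 3 were tested, and all 3 were lower in descending aorta under both treatments. Dner, a non-canonical ligand, is placed with inhibitors in the list and is not among them. Jag2 averaged 5.21 and 10.4 CPM in descending and ascending aorta under BAPN (log2 difference -0.99, SE 0.13, adjusted p = 9.01e-07), and 5.98 and 11.3 CPM under water (-0.92, SE 0.13, adjusted p = 2.07e-06).

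Gja5, which encodes the arterial gap junction protein connexin 40, and Dtx1 had the 2 smallest p-values of this list in each regional comparison. Gja5 averaged 109 and 42.9 CPM in descending and ascending aorta under BAPN (log2 difference 1.34, SE 0.09, adjusted p = 1.17e-11), and 82.3 and 36.4 CPM under water (1.18, SE 0.09, adjusted p = 1.57e-10). Dtx1, a ubiquitin ligase of the Deltex family and a target of Notch, averaged 7.70 and 19.5 CPM under BAPN (-1.34, adjusted p = 3.06e-11) and 7.51 and 18.4 CPM under water (-1.30, adjusted p = 5.69e-11). Tle2, a Groucho-type corepressor, was lower in descending aorta, with a log2 difference of -0.80 (adjusted p = 3.14e-07) under BAPN and -0.82 (adjusted p = 1.80e-07) under water. Ccnd1, a cell cycle gene, was lower as well, with -0.82 (adjusted p = 1.12e-07) under BAPN and -0.65 (adjusted p = 2.65e-06) under water. Aph1b, a subunit of the γ-secretase that cuts the receptors, was higher by 0.45 (adjusted p = 2.61e-06) under BAPN, where region and batch coincide. Neurl1a, a ubiquitin ligase, was lower under water (-1.18, adjusted p = 1.50e-06). Each is given only for the treatment in which it was among the 6 smallest p-values. This choice does not make either gene specific to that treatment. The test for a regional difference that depends on treatment cannot settle it, because 0 of 59 and 0 of all 15543 tested genes passed.

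Under BAPN in descending aorta, 12 of the 59 genes passed, 8 higher and 4 lower than under water, against 10.7% of all genes. Dll1, a ligand, averaged 13.4 CPM under BAPN and 7.63 CPM under water there (log2 difference 0.82, SE 0.14, adjusted p = 0.000375), without overlap of the groups. In ascending aorta Dll1 averaged 17.05 CPM under BAPN and 13.1 CPM under water (0.39, adjusted p = 0.0812), and the difference of the 2 effects, 0.43 (95% interval 0.03 to 0.83), did not pass (adjusted p = 0.686). Neurl1b, a ubiquitin ligase for ligand uptake, was lower (-0.75, SE 0.16, adjusted p = 0.00307), as was Dner, a non-canonical ligand (-0.61, SE 0.14, adjusted p = 0.00393). Gja5 rose by 0.40 (adjusted p = 0.00412), Maml1, a coactivator of the Notch complex, by 0.25 (0.00458) and Furin, a protease that processes the receptors, by 0.21 (0.00919). Within the batch with lower pseudogene levels 5 of the 59 passed, against 3.18% of all genes in that fit.

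In ascending aorta 4 of the 59 passed under BAPN, 1 higher and 3 lower, against 6.34% of all genes. Dner was lower there as well (-0.58, SE 0.13, adjusted p = 0.00497), with Maml2, a coactivator (-0.23, adjusted p = 0.0339) and Numbl, a relative of the Notch inhibitor Numb (-0.19, adjusted p = 0.0492). Ctbp1, a corepressor, was higher (0.13, adjusted p = 0.0424). The count fell to 1 or 2 without number 4 of descending BAPN, number 1, 2, 4 or 5 of ascending BAPN, or number 2, 3 or 5 of ascending water. It was 0 within the batch with higher pseudogene levels, against 2.17% of all genes in that fit. For the difference of the BAPN effect between regions, 0 of 59 passed and 3 had an unadjusted p under 0.05.

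The genes whose log2 CPM followed each member most closely were sought among 10594 genes, by Pearson's r over the 20 libraries, as a description. The libraries share region, treatment and batch, so r is given also after each group's mean was subtracted. Notch1 was followed by Flt1, a receptor of vascular endothelial growth factor (r = 0.96), and Inhbb (0.96), and Flt1 remained among its nearest after subtraction (0.80), behind Prrt4 (0.82). Notch4 was followed by Tmem158 (0.96) and Ctsh (0.95), and after subtraction by Mmrn2, an endothelial matrix gene (0.80), and Mcfd2 (0.78). Hes1 was followed by the immediate early genes Klf10 (0.84) and Egr1 (0.82), and after subtraction by Id3 (0.94) and Zfp36l2 (0.90). Dll4 was followed by the haemoglobin genes Hbb-bt (0.74) and Hba-a2 (0.73), and after subtraction by Hbb-bt (0.82) and Trib2 (0.82).

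Among the remaining targets, Hey1 was nearest to Lsp1 (0.92) and Ahr (0.89), Hey2 to Zfp704 (0.89) and Dpysl5 (0.89), and Heyl to Slc6a7 (0.82) and Jade2 (0.82). After subtraction Hey1 was nearest to Arl3 (0.79) and Fam49b (0.77), Hey2 to Smad3 (0.79) and Tbc1d19 (0.78), and Heyl to Mn1 (0.88) and Foxo6 (0.88). Jag1 was nearest to Snx33 (0.81) and Col4a4 (0.80), and after subtraction to Wasf2 (0.84) and Chd8 (0.79). Notch2 was nearest to Prrc2b (0.88) and Arid1b (0.87), and after subtraction to Ncor1 (0.93) and Kidins220 (0.91). Notch3 was nearest to Bcorl1 (0.77) and Bcr (0.75), and after subtraction to Bcr (0.81) and Asxl1 (0.81).

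Among the members themselves, Notch1 and Notch4 had r = -0.83 over the 20 libraries and 0.34 after subtraction of group means. Hey1 and Hes1 had r = 0.65 over all libraries and 0.57 after subtraction. Dll4 and Heyl had r = -0.33 over all libraries and -0.72 after subtraction. Points share library and depth, and no test is attached to these values.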

How the data were processed

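RNA of 20 mouse aorta libraries was sequenced, 5 for each combination of region and treatment. The deposited values are raw read counts per gene, and per the submitters' processing notes the authors used fastp, STAR 2.5 and HTSeq 0.6.1 with mm10; their settings and annotation are not given in the sources used here. Of 54532 gene IDs, 54495 matched GENCODE M21, which gave symbols, positions and exon lengths.

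Genes were kept by filterByExpr (minimum count 10, minimum total 15), libraries were scaled by TMM, and 1 quasi-likelihood model over all 20 libraries was fitted in edgeR 4.0.16 (R 4.3.3). P-values were adjusted by Benjamini-Hochberg over the 15543 tested genes of each comparison, with a threshold of 0.05. Levels are CPM, and correlations use log2 CPM with a prior count of 2. The fit was tested on simulated data. Alternatives were DESeq2 1.42.0, limma-voom (limma 3.58.1), other scalings and filters, batch terms, the replicate block and each library left out. Replicate libraries differed by more than sampling noise (chi-square per gene from 3.98 to 14.1 over 40 pairs), so none was merged. Totals of 15.7 M to 23.3 M counts limit precision most for Dll4.

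The members, lists and motifs were chosen with earlier results of these data known. All 10 members were named, up to 6 passing genes of the wider list per comparison by p, and the 2 nearest genes of each member (mean of at least 5 CPM). Pairs among members given by r, and genes named beyond this rule, were chosen after their values were seen. Batches were split on the first principal component of 33 pseudogenes (gap 1.73, against at most 0.506 within a set). Figures were drawn with matplotlib.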

Additional observations from a re-analysis of the deposited data

How the results depend on the processing

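Of 1480 recomputed member results, 1447 stayed on their side of the threshold, 29 no longer passed and 3 newly passed with the same sign, and 1 that had passed changed sign and no longer passed. That one was Hes1 between regions under water, 0.018 (log2 scale) within the batch with higher pseudogene levels. Of the 1447, 1356 kept their sign and 91 changed it, and these 91 passed in neither fit. Among the 37 sign changes in fits of all other kinds than leaving out 1 library, those with a main-fit value beyond 0.1 were that of Hes1 and 4 of BAPN against water: Hes1 in ascending aorta within the batch with higher levels (0.20, against -0.17), Heyl there with a batch term (0.01, against -0.14), and Dll4 in descending aorta with a batch term (0.06) and within the batch with lower levels (0.14), against -0.16. Some smaller main-fit values turned to values beyond 0.1 with a batch term. Dll4 between regions under BAPN was then 0.34, against -0.00092. The difference of the BAPN effect between regions was then 0.14 for Hey1, against -0.0026, and 0.101 for Notch1, against -5.9e-05. In ascending aorta the count of members changed by BAPN was 0 with a batch term, 0 within that batch, 0 with the 2 groups alone, and 0 to 1 when single libraries were left out; the count over all genes was 542 with a batch term and 344 within the batch, against 986. In descending aorta 1 of 10 members, Jag1, passed with upper-quartile scaling, at an adjusted p = 0.0499 with edgeR. The share of all genes with that scaling is not given here, so this count has no background beside it. In the main fit 0 of 10 members and 1667 genes (10.7%) passed. Within the batch with lower pseudogene levels 0 of 10 members and 501 genes (3.18%) passed. Between regions under water, 3 of 10 members and 2986 genes (18.8%) passed within the batch with higher levels. Within the other batch, 5 of 10 members and 2399 genes (15.2%) passed. With all libraries it was 5 of 10 members and 4243 genes (27.3%). Under BAPN a batch term left 3 of 10 members and 2755 genes (17.7%), against 4 of 10 members and 4626 genes (29.8%). For the difference of the BAPN effect between regions, 41 genes passed without a filter on low counts, 14 with DESeq2 and 0 to 16 when single libraries were left out (16 without descending water 4, 1 without descending BAPN 5), none of them a member. Averaged over regions, 2 of 10 members passed for BAPN against water without a filter. Heyl was the one added (-0.15, adjusted p = 0.0427 with edgeR). The share of all genes in that fit is not given here, so this count has no background beside it. When single libraries were left out, 1 to 2 members passed, against 2389 to 2835 of all genes. With all libraries it was 1 of 10 members, against 2718 genes (17.5%). The causes were not tested.

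The labels do not say that equal replicate numbers mark a shared animal, and in no pair of groups were all 5 same-number correlations over 0.1. Between descending and ascending aorta under BAPN they ran from 0.06 to 0.11, and 5 of 5 libraries correlated best with their own number, a hint from the data and not the design. Between the regions under water (-0.05 to 0.10) it was 1 of 5, between BAPN and water 3 of 5 in descending (-0.03 to 0.17) and 1 of 5 in ascending aorta (-0.05 to 0.08). With the replicate number as a block, Jag1 under BAPN in ascending aorta had an adjusted p = 0.00654 with edgeR, against 0.0497 without it. With this block Jag1 was the 1 member that passed in descending aorta (adjusted p = 0.0214 with edgeR, against 0.108), where 1762 of all genes (11.3%) passed. This block joins BAPN and water libraries of equal number, which cannot share an animal if each mouse received either BAPN or water. It therefore cannot stand for animals when BAPN is compared with water, and no conclusion is drawn from these lower p-values. With the same block, Jag1 passed as lower in descending aorta in the mean over treatments (-0.09, adjusted p = 0.0315). Depth limits Dll4 most, at 52 to 113 reads in a library.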
